A study of Mus musculus with 9 samples.

Results

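Heat shock protein genes encode the chaperones that help proteins fold and keep them from clumping. The 10 such genes described here were all rows of the deposited sample table whose symbol starts with Hspa, Hspb, Hspd, Hspe, Hsph or Hsp90, out of 2889 genes in that table. They are Hspa1a, Hspa1b, Hspa8, Hspa2, Hspa4, Hspa4l, Hsph1, Hspa5, Hsp90aa1 and Hsp90ab1, so the label of heat shock and chaperone genes holds by name for each of them, and no Hspb, Hspd or Hspe gene was among the rows. The samples were splenic CD3+ T cells of 3 wild-type C57BL/6 mice, obtained by removing the other cell types. Each mouse gave 1 sample kept for 4 h in medium conditioned by adipocytes, 1 in medium conditioned by stromal cells and 1 in unconditioned RPMI, so each of the 3 media had 3 samples. This pairing reads samples with the same replicate number as coming from the same mouse. The labels do not say which adipocytes or stromal cells conditioned the media. RNA was sequenced after SMART-seq v4 amplification.

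Chaperones of the HSP70 family bind short hydrophobic stretches of unfolded proteins and release them in a cycle driven by ATP. J-domain proteins deliver clients to HSP70, and HSP110 proteins speed the exchange of nucleotide that frees the client. HSP90 takes over partly folded clients, among them kinases and steroid hormone receptors, and in T cells the kinase Lck is a known client. Heat shock factor 1 (HSF1) drives the inducible members after heat or other protein damage by binding repeats of the bases GAA in alternating orientation, and the unfolded protein response drives the family members of the endoplasmic reticulum.

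The sample table was itself a selection made on these samples. Each of its 2889 genes was also in the authors' tables of genes changed by either conditioned medium, and all 10 heat shock protein genes were in their adipocyte table, whereas 1 of them, Hspa2, was in their stromal table. A call between adipocyte and unconditioned medium therefore repeats that selection and is not independent evidence. The comparison of adipocyte with stromal medium uses the same adipocyte samples, so it is not free of that selection. Both comparisons with unconditioned medium share the same 3 unconditioned samples. Family members and co-chaperones without a row were not analysed here. All values are normalized counts, the authors' read counts divided by 1 size factor per sample, and 1 read was worth 0.660 to 1.44 of them. Reads on the listed genes came to between 6522742 and 13758643 per sample. The heat shock protein genes had from 269 reads (Hspa2, unconditioned sample of mouse 1) to 122968 reads (Hsp90ab1, stromal sample of mouse 2).

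The promoter sequences of the genes the results turn on are given first. Hspa1a and Hspa1b, the pair with the highest fold changes, are shown because their upstream sequences are nearly the same, Hsph1 because its promoter holds heat shock elements, and Hspa5 because it holds the element of the unfolded protein response. Each run is the 250 bases before the RefSeq start site, 5′ to 3′ on the strand of the gene, in build GRCm38.p6, and capitals mark the fixed letters of a motif match. The 4 windows are chr17:34972157-34972406, chr17:34959239-34959488, chr5:149636337-149636586 (all on the minus strand) and chr2:34771840-34772089 (plus strand).
Hspa1a: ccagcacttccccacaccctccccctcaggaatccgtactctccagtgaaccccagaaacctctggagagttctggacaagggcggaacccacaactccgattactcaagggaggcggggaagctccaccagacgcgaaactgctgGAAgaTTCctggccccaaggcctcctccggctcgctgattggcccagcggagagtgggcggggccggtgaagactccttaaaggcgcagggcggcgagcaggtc
Hspa1b: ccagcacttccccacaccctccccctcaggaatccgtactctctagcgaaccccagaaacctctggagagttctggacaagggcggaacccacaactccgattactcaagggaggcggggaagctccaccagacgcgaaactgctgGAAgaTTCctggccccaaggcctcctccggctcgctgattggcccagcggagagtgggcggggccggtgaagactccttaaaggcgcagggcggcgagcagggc
Hsph1: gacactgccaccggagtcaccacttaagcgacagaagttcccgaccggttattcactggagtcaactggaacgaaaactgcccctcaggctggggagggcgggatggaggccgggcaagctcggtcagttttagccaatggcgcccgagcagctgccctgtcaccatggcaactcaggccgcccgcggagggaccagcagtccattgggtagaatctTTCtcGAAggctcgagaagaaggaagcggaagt
Hspa5: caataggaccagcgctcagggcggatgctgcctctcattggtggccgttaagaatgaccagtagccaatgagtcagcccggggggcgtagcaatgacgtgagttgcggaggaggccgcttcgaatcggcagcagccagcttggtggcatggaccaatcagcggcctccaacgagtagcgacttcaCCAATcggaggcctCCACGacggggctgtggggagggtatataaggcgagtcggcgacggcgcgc

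Of the 10 genes, 7 had a promoter in the RefSeq table, each window running from 250 bases before to 50 bases after the start site. The first motif was a heat shock element of 2 units, GAANNTTC or TTCNNGAA, read on both strands. It was found in Hspa1a, Hspa1b and Hsph1 and in none of the windows of Hspa2, Hspa4, Hspa4l and Hspa5, against 15.1% of all 32851 promoter windows and 11.8% of the 2925 windows of genes in the sample table. In Hspa1a and Hspa1b the match GAAGATTC lay at -104 to -97 from the start site. A heat shock element of 3 units, TTCNNGAA followed after any 2 bases by TTC, on either strand, overlaps the 2-unit form. It was in both windows of Hsph1, which has 2 start sites, and in no other of the 7 genes, against 0.603% of all windows. That match lies 36 to 48 bases past the start site, in the window counted from the site farther upstream, so it is not in the run shown. The endoplasmic reticulum stress element, CCAAT and CCACG with any 9 bases between them, on either strand, was in Hspa5, at -65 to -47, and in 0.119% of all windows. TATAAA was in none of the 7 genes and in 13.6% of all windows. A match describes letters and does not show that a factor binds there, and a window with no match shows nothing about the factor.

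Hspa1a and Hspa1b encode the stress-inducible cytosolic HSP70 and are neighbouring copies on chromosome 17 with 1 exon each. Their reading frames were 99.4% identical, with 8 mismatches and 3 gap positions over 1926 and 1929 bases in GENCODE M21. Their upstream windows of 250 bases differed at 3 bases. The whole transcripts, which differ at their ends, were 84.3% identical, and 41.2% of the 50-base windows of the Hspa1a transcript (37.7% for Hspa1b) do not occur in the other. The authors' counting could thus split or lose reads within the shared part, and each value of a single copy is uncertain. In addition, 564 bases of Hspa1a, 19.0% of its exon length, overlap an exon of Gm20481 on the opposite strand, and these libraries do not keep strand.

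The inducible HSP70 pair rose most of the 10 genes in adipocyte medium. Hspa1a (ENSMUSG00000091971) was at 5540, 3080 and 7515 normalized counts in adipocyte medium in mice 1, 2 and 3, at 687, 921 and 582 in stromal medium and at 456, 335 and 370 in unconditioned medium. Hspa1b (ENSMUSG00000090877) was at 15153, 8833 and 20742 in adipocyte medium, at 1769, 2301 and 1590 in stromal medium and at 1166, 950.0 and 1183 in unconditioned medium. For both genes the 3 media did not overlap, and the adipocyte samples were spread the widest, with mouse 3 highest and mouse 2 lowest. In stromal medium the order of mice was another one, with mouse 2 highest.

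On the log2(normalized count + 1) scale, which slightly understates changes of low genes, Hspa1a differed by 3.71 between adipocyte and unconditioned medium (SE 0.27, 13.1-fold, limma adjusted p = 6.89e-08). Hspa1b differed by 3.68 (SE 0.24, 12.8-fold, limma adjusted p = 3.98e-08). Both were higher in 3 of 3 mice. Summing the copies removes the question of how reads were split between them. The sum was 20288 ± 8180 normalized counts in adipocyte medium, 2617 ± 543 in stromal medium and 1486 ± 178 in unconditioned medium (mean ± SD, n = 3 each). It was 12.9-fold higher in adipocyte than in unconditioned medium (log2 fold change 3.69, SE 0.25, limma adjusted p = 4.16e-08). Between adipocyte and stromal medium it was 7.40-fold higher (log2 fold change 2.89, SE 0.25, limma adjusted p = 4.09e-07).

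In stromal medium the inducible pair was higher by less, and this call rests on few samples. The sum was 1.74-fold higher than in unconditioned medium (log2 fold change 0.80, 95% interval 0.26 to 1.34, limma adjusted p = 0.0147). The call ended without the stromal sample of mouse 2 (0.64, limma adjusted p = 0.0732), without the unconditioned sample of mouse 2 (0.70, limma adjusted p = 0.0615) and without all samples of mouse 1 (0.90, limma adjusted p = 0.0657). Within mice the log2 ratio of stromal over unconditioned medium was 0.60, 1.33 and 0.48 in mice 1, 2 and 3. In adipocyte medium the same ratio was 3.67, 3.21 and 4.18.

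The share of the pair's reads that fell on Hspa1a was between 23.8% and 28.6% in all 9 samples. It was 26.8%, 25.9% and 26.6% in the adipocyte samples, 28.0%, 28.6% and 26.8% in the stromal samples and 28.1%, 26.0% and 23.8% in the unconditioned ones, in the order of mice 1, 2 and 3. The Wilson 95% interval was narrowest in the adipocyte sample of mouse 3, at 26.1% to 27.1% over 28923 reads. It was widest in the unconditioned sample of mouse 1, at 25.6% to 30.8% over 1135 reads. These intervals cover counting error only, since amplified reads without molecular identifiers are not independent molecules. The highest adipocyte and the lowest stromal share both round to 26.8%, so these ranges all but met. The interval of that stromal sample, of mouse 3, was 24.8% to 28.9%. The share was lower in adipocyte than in stromal medium in 3 of 3 mice, by the least in mouse 3. The unconditioned range overlapped both. Differences in the share between media were not tested.

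**Figure D1:**
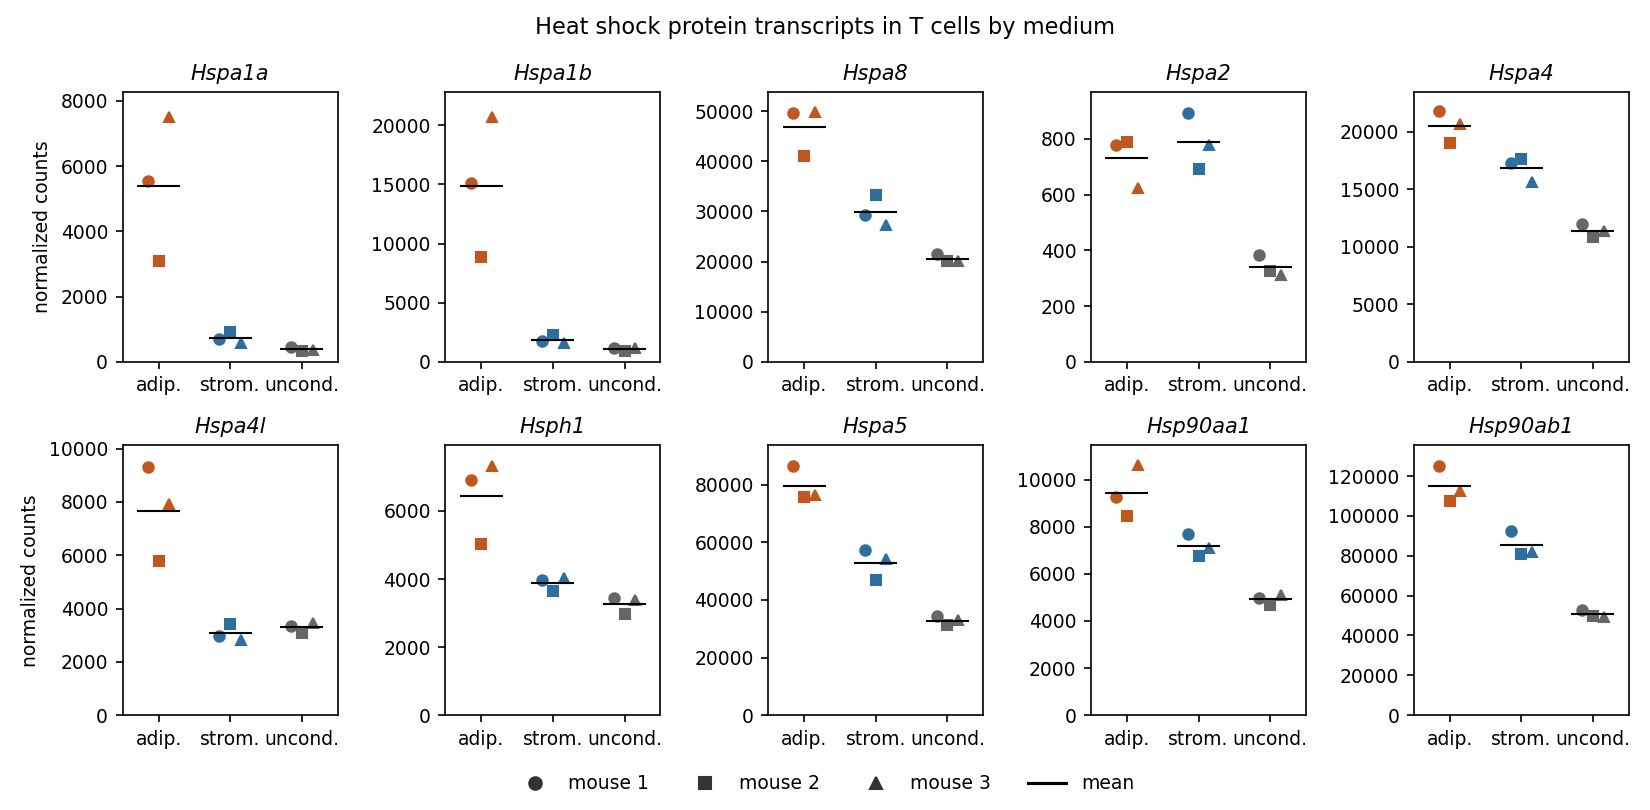
Normalized counts (each panel with its own axis from 0) of the 10 heat shock protein genes in adipocyte, stromal and unconditioned medium, with 1 point per mouse and a bar at the mean of the 3 mice. Hspa1a and Hspa1b have the highest fold changes and, relative to their means, the widest spread in adipocyte medium. Hspa2 is about as high in stromal as in adipocyte medium, and Hspa4l in stromal medium overlaps unconditioned medium.

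Among the other HSP70 chaperones, Hspa8 and Hspa5 rose in both conditioned media. Hspa8 (ENSMUSG00000015656), the cytosolic HSP70 that cells make without stress, was at 49692, 41100 and 49744 normalized counts in adipocyte medium, 29305, 33277 and 27331 in stromal medium and 21423, 20032 and 20188 in unconditioned medium. It was 2.27-fold higher in adipocyte than in unconditioned medium (log2 fold change 1.18, SE 0.10, limma adjusted p = 2.65e-07) and 1.45-fold higher in stromal medium (0.54, SE 0.10, limma adjusted p = 7.07e-04). The 3 media did not overlap. Some small nucleolar RNA genes overlap Hspa8 when the exons of all its annotated transcripts are merged, each by at most 90 bases. They may lie in introns of other Hspa8 transcripts, which was not examined.

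Hspa5 (ENSMUSG00000026864) encodes BiP, the HSP70 of the endoplasmic reticulum, which holds the sensors of the unfolded protein response inactive until misfolded proteins draw it away. It was at 86478, 75845 and 76379 normalized counts in adipocyte medium, 57372, 47062 and 54155 in stromal medium and 34268, 31356 and 32927 in unconditioned medium. This was 2.42-fold higher in adipocyte medium (log2 fold change 1.27, SE 0.10, limma adjusted p = 1.37e-07) and 1.60-fold higher in stromal medium (0.68, SE 0.10, limma adjusted p = 1.10e-04) than in unconditioned medium. Its values ranked in the same order of media as those of Hspa8, again without overlap.

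Hspa2, an HSP70 known in mice for its role in spermatogenesis, had another pattern. It was at 777, 790.2 and 623 normalized counts in adipocyte medium, 893, 693 and 778 in stromal medium and 384, 326 and 310.3 in unconditioned medium. Both conditioned media stood above unconditioned medium without overlap, while the conditioned media overlapped each other. The log2 fold change was 1.10 in adipocyte medium (SE 0.14, limma adjusted p = 7.84e-06) and 1.21 in stromal medium (SE 0.14, limma adjusted p = 1.85e-05), each against unconditioned medium. Between adipocyte and stromal medium the difference was -0.11 (95% interval -0.42 to 0.20, limma adjusted p = 0.466). Rescaling the samples by the median of ratios over the listed genes gave 0.46 for that difference (limma adjusted p = 0.010). Its sign thus differed between the scalings, although that rescaling rests on genes selected for change. Among the 10 genes Hspa2 was the single gene in the authors' deposited table for stromal medium, where its log2 fold change was 1.21 (adjusted p = 4.38e-04, testing whether the change exceeds 1.5-fold).

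Proteins of the HSP110 group exchange nucleotide on HSP70. The 3 genes of the HSP110 group rose in adipocyte medium, and in stromal medium 1 of them, Hspa4, was called higher; differences between these genes were not tested. Hspa4 (ENSMUSG00000020361) was at 21771, 18975 and 20694 normalized counts in adipocyte medium, 17276, 17616 and 15661 in stromal medium and 11945, 10883 and 11385 in unconditioned medium, with no overlap between media. It was 1.79-fold higher in adipocyte medium (log2 fold change 0.84, SE 0.08, limma adjusted p = 6.96e-07), the smallest rise of the 10 genes, and 1.48-fold higher in stromal medium (0.56, SE 0.08, limma adjusted p = 1.03e-04). Between adipocyte and stromal medium it differed by 0.28 (SE 0.08, limma adjusted p = 0.00650). That last call ended without mouse 1 (limma adjusted p = 0.0569) or mouse 3 (limma adjusted p = 0.108) in every medium.

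Hspa4l (ENSMUSG00000025757) was at 9317, 5764 and 7903 normalized counts in adipocyte medium, 2978, 3433 and 2820 in stromal medium and 3344, 3086 and 3451 in unconditioned medium. Only the adipocyte samples stood apart, and stromal overlapped unconditioned medium. The rise in adipocyte medium was 2.28-fold (log2 fold change 1.19, SE 0.14, limma adjusted p = 4.32e-06). In stromal medium the log2 fold change was -0.10 (95% interval -0.42 to 0.21, limma adjusted p = 0.569), and 0.26 after rescaling by the median of ratios. Adipocyte exceeded stromal medium by 1.29 (SE 0.14, limma adjusted p = 3.53e-06), the widest such gap after the inducible pair.

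Hsph1 (ENSMUSG00000029657), encoding the heat-inducible HSP105, was at 6912, 5038 and 7334 normalized counts in adipocyte medium, 3979, 3661 and 4045 in stromal medium and 3429, 2960 and 3394 in unconditioned medium. It was 1.95-fold higher in adipocyte than in unconditioned medium (log2 fold change 0.96, SE 0.13, limma adjusted p = 7.95e-06). In stromal medium it was higher in 3 of 3 mice without overlap, by 0.26 (SE 0.13), and did not pass the threshold (limma adjusted p = 0.0959). A fit that pairs the samples by mouse, with mouse as a block, put it past the threshold (limma adjusted p = 0.0317). It was also past the threshold in a fit of only these media (limma adjusted p = 0.0166), without the adipocyte sample of mouse 2 (limma adjusted p = 0.0140), without all samples of mouse 2 (limma adjusted p = 0.0312) and after rescaling by the median of ratios (0.61, limma adjusted p = 0.00226).

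Both cytosolic HSP90 genes rose in both conditioned media. Hsp90ab1 (ENSMUSG00000023944), the form made without stress, was at 125198, 107702 and 112594 normalized counts in adipocyte medium, 92437, 81107 and 82095 in stromal medium and 52992, 49762 and 49066 in unconditioned medium. It was 2.27-fold higher in adipocyte medium (log2 fold change 1.18, SE 0.10, limma adjusted p = 2.31e-07) and 1.68-fold higher in stromal medium (0.75, SE 0.10, limma adjusted p = 5.12e-05) than in unconditioned medium. The stress-inducible form, Hsp90aa1 (ENSMUSG00000021270), was at 9288, 8459 and 10623 in adipocyte medium, 7705, 6751 and 7095 in stromal medium and 4971, 4700 and 5109 in unconditioned medium. Its rise was 1.91-fold (0.94, SE 0.09, limma adjusted p = 6.69e-07) in adipocyte medium and 1.46-fold (0.54, SE 0.09, limma adjusted p = 2.86e-04) in stromal medium. The stress-inducible HSP90 gene thus did not have the higher fold change of the 2, unlike the stress-inducible HSP70 genes set beside Hspa8; these differences between genes were not tested.

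**Figure D2:**
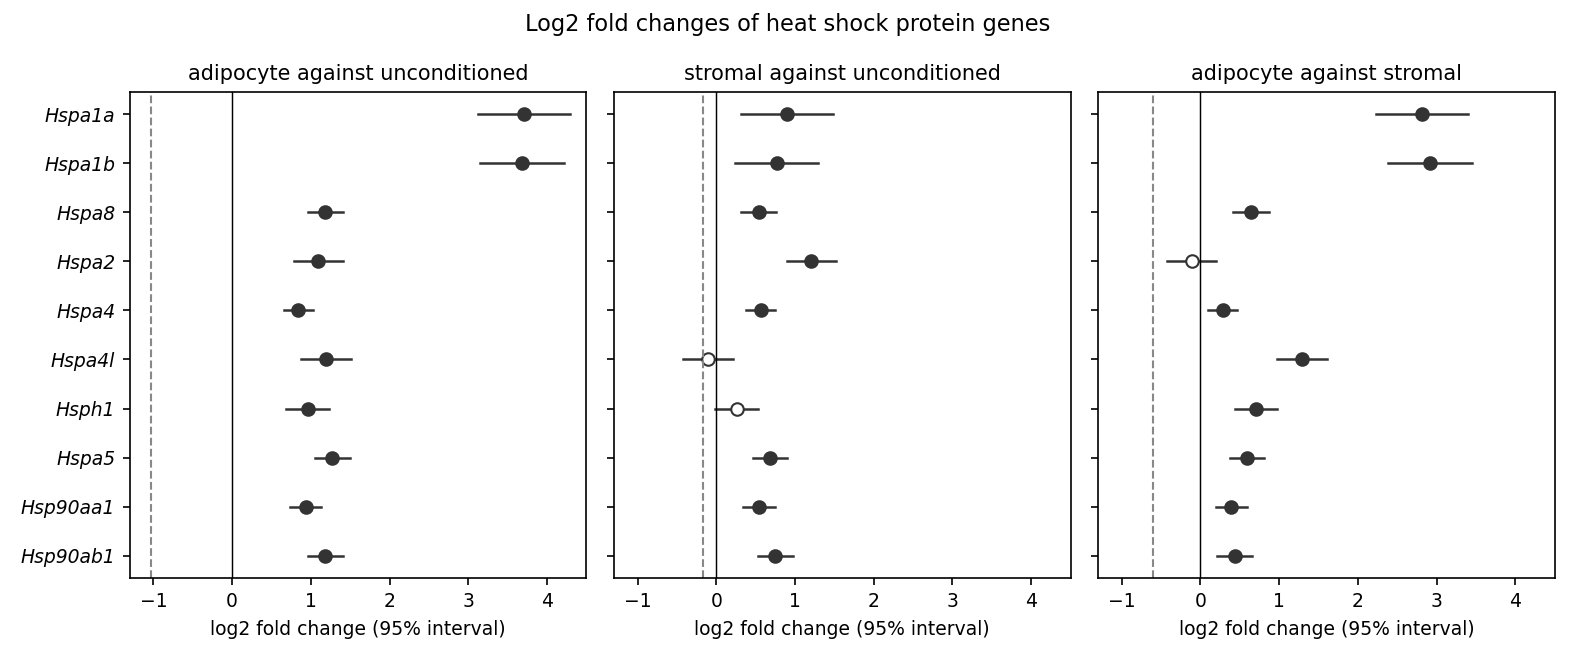
Log2 fold changes of the 10 heat shock protein genes in the 3 comparisons, with 95% intervals from limma. Filled circles are past an adjusted p of 0.05, and the dashed line is the median of all 2868 genes tested (-1.03, -0.17 and -0.60). Hspa1a and Hspa1b stand near 3.7 in the first panel, Hspa4l and Hsph1 are open in the second, and Hspa2 is open in the third.

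Counted together, 10 of the 10 genes were higher in adipocyte than in unconditioned medium, with a median log2 fold change of 1.18 and a range of 0.84 to 3.71. In the same comparison 33.8% of the 2868 genes tested were called higher, 63.4% lower and 97.2% in either direction, with a median of -1.03. Since the table was selected for change, the share called is nearly complete for any set of its genes, and nothing is read from it about heat shock protein genes. In stromal against unconditioned medium 8 of 10 were higher and 0 lower (median 0.62, range -0.10 to 1.21), where 21.1% of all genes tested were called higher and 36.6% lower (57.7% in either direction, median -0.17). Between adipocyte and stromal medium 9 of 10 were higher and 0 lower (median 0.62, range -0.11 to 2.91), where 33.8% of all were called higher and 57.2% lower (91% in either direction, median -0.60). Every adipocyte sample was above every unconditioned one for 10 of 10 genes, against 33.6% of all genes tested. For stromal over unconditioned medium this held for 9 of 10 (25.1% of all), and for adipocyte over stromal medium for 9 of 10 (33.4% of all). For 8 of 10 genes, all but Hspa2 and Hspa4l, every adipocyte sample was above every stromal sample and every stromal sample above every unconditioned one. That order held for 14.3% of all genes tested.

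These changes are on the authors' scaling. Rescaling by the median of ratios over the listed genes moved the log2 fold changes of all genes by 0.93 in adipocyte and by 0.36 in stromal against unconditioned medium. It raised the log2 fold change of every heat shock protein gene, as it did for the listed genes in general. Hspa4l in stromal against unconditioned medium and Hspa2 in adipocyte against stromal medium thereby went from below 0 to above it. After rescaling, 10 were called higher in adipocyte and 9 in stromal medium when each was set against unconditioned medium. Set against stromal medium, 10 were called higher in adipocyte medium. On that scale 1078, 1129 and 1172 of all 2868 genes were called higher in the same order of comparisons. The method takes the typical listed gene as unchanged, but the listed genes were selected for change. On the authors' scale 63.4% of them were called lower in adipocyte than in unconditioned medium. The rescaled values therefore cannot show which scaling is right. The authors had put all 10 genes into the first of their 4 clusters, which held 920 genes, 31.8% of the table.

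**Figure D3:**
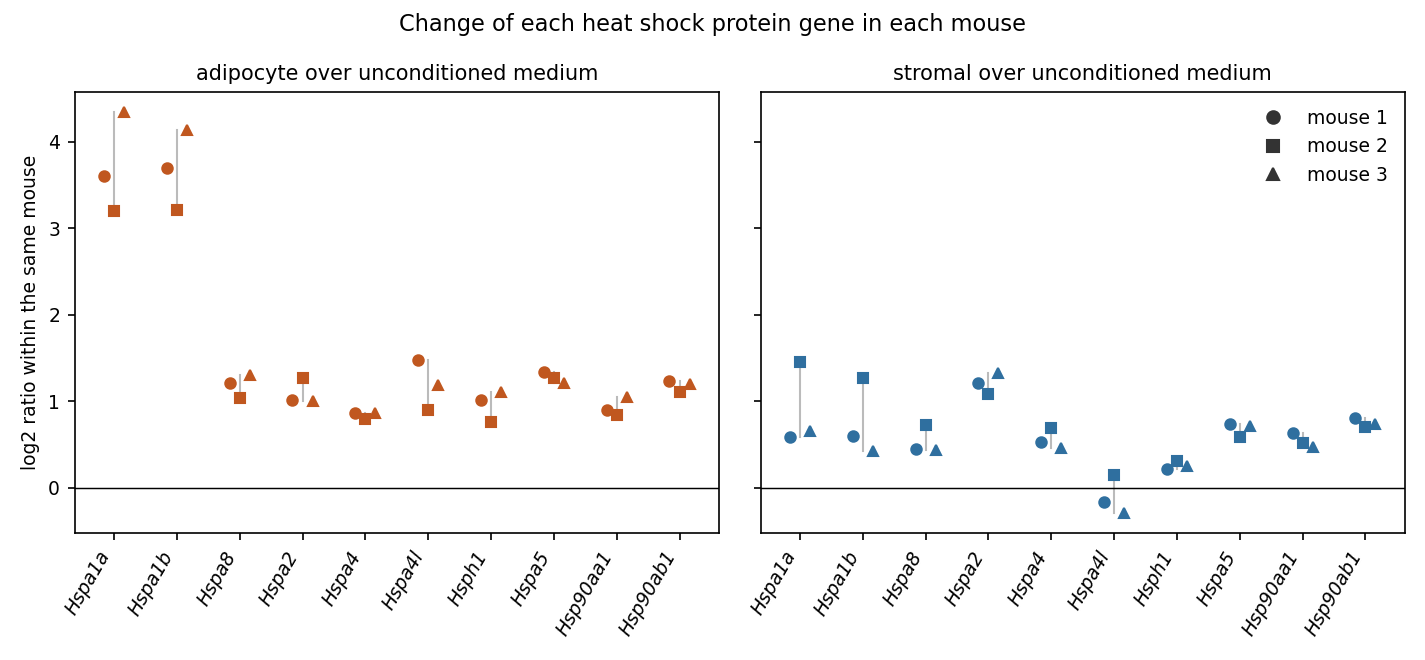
Log2 ratio of each conditioned medium over the unconditioned sample of the same mouse, for each of the 10 heat shock protein genes, on the log2(normalized count + 1) scale; symbols mark the mouse and grey lines span the 3 mice. In adipocyte medium all ratios are above 0 and those of Hspa1a and Hspa1b run from 3.20 to 4.34, and in stromal medium Hspa4l lies on both sides of 0.

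The spread among mice in adipocyte medium was shared by most of the genes. The adipocyte sample of mouse 2 had the lowest value of its group for 9 of 10 genes, all but Hspa2, where it had the highest. It was also lowest for 37% of all genes tested and for 64.8% of the 969 genes called higher in adipocyte medium, so the lower values of that sample were not limited to chaperones. Within mouse 2 the log2 ratio of adipocyte over unconditioned medium was 3.20 for Hspa1a and 0.77 for Hsph1, against 4.34 and 1.11 in mouse 3. Without that sample the count of genes higher in adipocyte medium was again 10 of 10.

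Levels of different genes can be compared only per length, and exon lengths came from GENCODE M21. Each length merges the exons of all annotated transcripts of a gene, such as 11792 bases for Hspa4l, 7266 for Hsph1 and 2803 for Hspa1b. A gene whose transcripts in these cells are shorter than that would have its level given too low. Which transcripts were present was not examined, so the order of genes is approximate. Per kilobase of exon, Hsp90ab1 was highest in each medium, with means of 38401 normalized counts in adipocyte, 28414 in stromal and 16874 in unconditioned medium, and Hspa5 and Hspa8 came next. The place of Hspa1b in this order differed between media. It had 5319 per kilobase in adipocyte medium, above Hspa4 with 3705 and Hsp90aa1 with 2406. In unconditioned medium Hspa1b had 392 per kilobase, below Hspa4 with 2063, Hsp90aa1 with 1253 and Hsph1 with 449. Hspa8 exceeded Hspa1b and Hspa1a in each medium, with 10892 per kilobase against 5319 and 1813 in adipocyte medium. The order of Hspa1a and Hspa1b themselves depends on how reads were split between the copies. Reads lost from their shared part would lower both copies, so their places against the other genes are uncertain too.

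**Figure D4:**
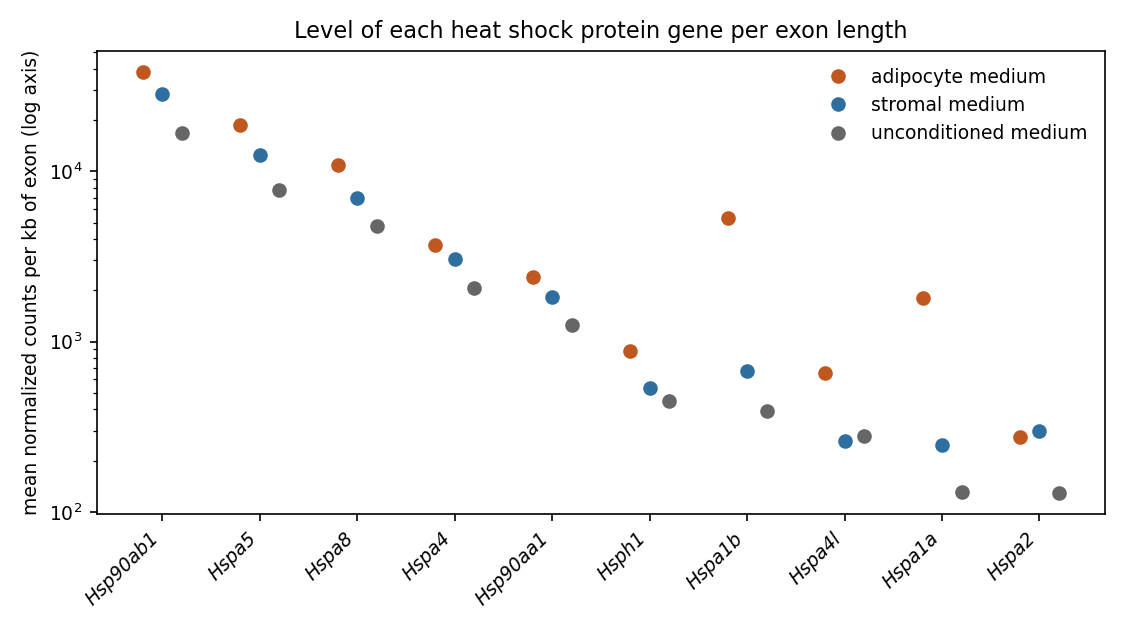
Mean normalized counts per kilobase of exon (log axis) of the 10 heat shock protein genes, ordered by their level in unconditioned medium, with 1 point per medium (mean of 3 mice). Hspa1b lies 7th in unconditioned medium at 392 and 4th in adipocyte medium at 5319, and Hsp90ab1 is highest in each. The levels of Hspa1a and Hspa1b would be too low if reads of their shared part were lost. Exon length merges all annotated transcripts of a gene, so the order of genes is approximate.

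The co-chaperones and other proteostasis genes included both higher and lower genes. Lists of 170 such genes beyond the 10 were drawn up by role, and 16 of them were in the sample table and could be tested. In adipocyte against unconditioned medium 8 were higher and 8 lower (median -0.03), where 33.8% of all genes tested were higher and 63.4% lower. In stromal against unconditioned medium 7 were higher, 5 lower and 4 not past the threshold (median 0.11), where 21.1% of all were higher and 36.6% lower. Rescaling by the median of ratios left 8 higher and 4 lower in adipocyte medium and 10 higher and 2 lower in stromal medium. None of the 7 listed heat shock factor genes and binding proteins, and none of the 12 other genes listed as heat-inducible, was in the table.

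J-domain genes, whose products hand clients to HSP70, split in adipocyte medium. Of 46 listed, 8 were tested, and Dnajc27, Dnajb6, Dnajb9 and Dnajc21 were higher while Dnajc10, Dnajc19, Dnajc30 and Dnajb3 were lower. Of all genes tested, 33.8% were called higher and 63.4% lower against unconditioned medium. Dnajb3 was near the floor, so its change rests on few reads. Dnajb6, whose protein suppresses aggregation, averaged 10867 ± 596 normalized counts in adipocyte medium and 5759 ± 196 in unconditioned medium (SD, n = 3 each; log2 fold change 0.92, limma adjusted p = 1.49e-07). Dnajc27 averaged 2313 ± 158 in adipocyte medium and 1017 ± 28.1 in unconditioned medium (1.18, limma adjusted p = 6.53e-08). Dnajc10, an endoplasmic reticulum reductase that works with BiP, was lower, at 3006 ± 320.2 in adipocyte medium and 6582 ± 178 in unconditioned medium (-1.14, limma adjusted p = 2.22e-07). Dnajc19, of the mitochondrial inner membrane, was lower as well, at 216 ± 33.6 in adipocyte medium and 655 ± 22.5 in unconditioned medium (-1.61, limma adjusted p = 2.75e-07).

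Single genes of the other roles were tested. Sgtb, an HSP70 adaptor with tetratricopeptide repeats, rose by 1.85 in adipocyte medium (limma adjusted p = 1.19e-06) and by 0.84 in stromal medium (limma adjusted p = 0.00262). The HSP90 co-chaperone gene Ptges3, encoding p23, rose by 0.86 in adipocyte and 0.47 in stromal medium (limma adjusted p = 1.35e-06 and 8.76e-04), whereas Fkbp5, an HSP90 co-chaperone of steroid receptors, was at -0.95 and -0.33 (limma adjusted p = 4.19e-06 and 0.0282). Ddit3, encoding the stress factor CHOP, rose by 1.11 and 0.50 (limma adjusted p = 4.62e-06 and 0.00685). The mitochondrial disaggregase gene Clpb rose by 0.99 and 0.77 (limma adjusted p = 4.28e-07 and 2.18e-05). Htra2, a mitochondrial protease gene, was at -0.89 in adipocyte medium (limma adjusted p = 2.09e-06) and at 0.05 in stromal medium (limma adjusted p = 0.681). The tubulin folding genes Tbcc and Tbcd were at -1.11 and -1.14 in adipocyte medium (limma adjusted p = 1.60e-06 and 1.89e-07). In stromal medium they parted, with Tbcc at -0.007 (limma adjusted p = 0.965) and Tbcd at -0.85 (limma adjusted p = 1.21e-05).

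**Figure D5:**
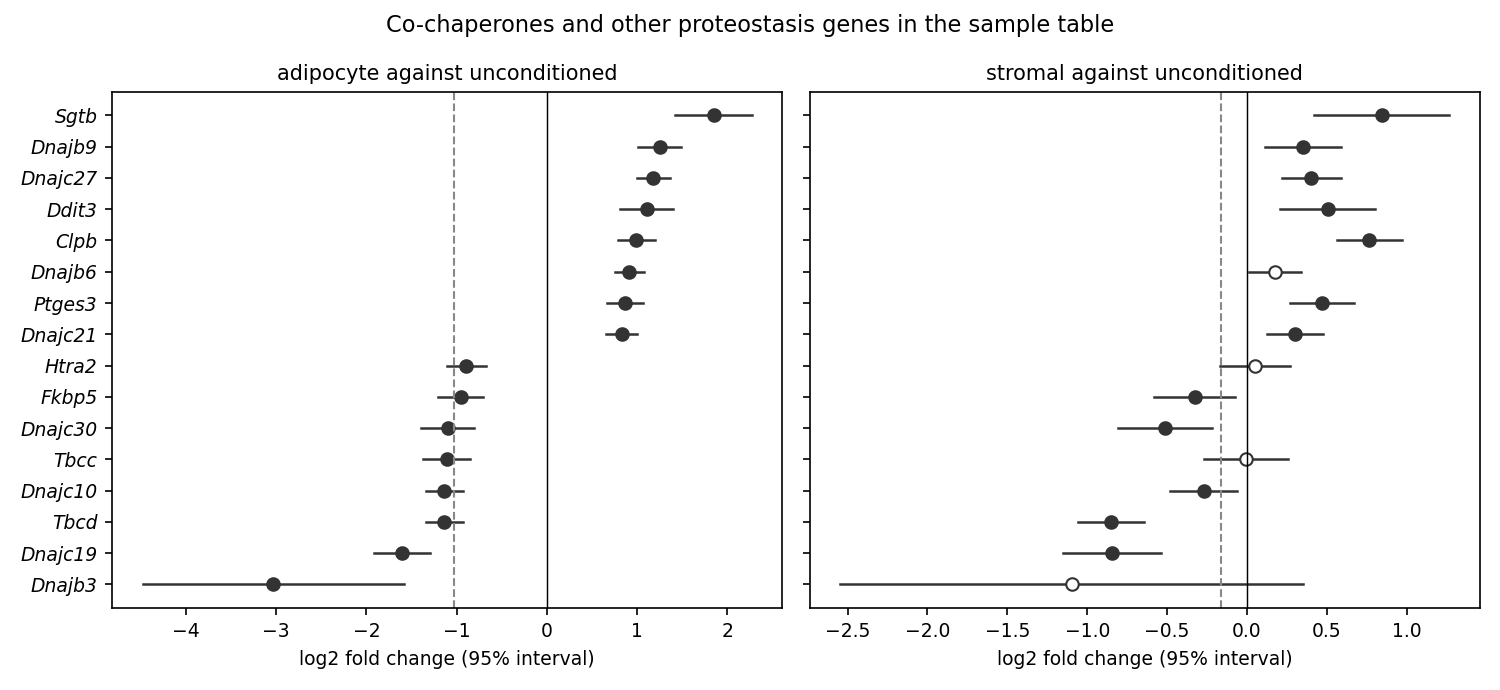
Log2 fold changes with 95% intervals of the 16 tested co-chaperone and proteostasis genes that are not heat shock protein genes by name, in adipocyte and in stromal medium against unconditioned medium. Filled circles are past an adjusted p of 0.05 and the dashed line is the median of all genes tested; in adipocyte medium 8 genes lie above 0 and 8 below.

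Immediate early genes were higher in adipocyte medium as the heat shock protein genes were, and their part in the result was not tested. Of 18 immediate early genes that handling of cells can also induce, 12 were tested, and 12 were higher in adipocyte against unconditioned medium (median 1.82) and 4 in stromal against unconditioned medium (median 0.05). Of all genes tested, 33.8% were called higher in the adipocyte and 21.1% in the stromal comparison, so the stromal count is near that share. Their summed level was 306323 to 484590 normalized counts in adipocyte, 113709 to 133813 in stromal and 110239 to 116929 in unconditioned medium. Of 3 tested oxidative stress genes 1, Nfe2l2, was higher and 2 were lower in adipocyte medium. Both tested proteasome genes, of 45 listed, were lower there. Of all genes tested, 63.4% were called lower in that comparison, so nothing is read from these counts.

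Cell type markers were lower in adipocyte medium, where the heat shock protein genes were higher. All 5 tested T cell markers of 20 were lower in adipocyte than in unconditioned medium, with a summed level of 42462 to 44070 normalized counts in adipocyte, 88751 to 91890 in stromal and 103410 to 115370 in unconditioned medium. The 9 tested B cell markers of 18 were lower too, and so were 7 of 8 tested myeloid markers of 20. Of all genes tested, 63.4% were called lower in this comparison, with a median log2 fold change of -1.03. The summed B cell markers were at 4240 to 5922 in adipocyte, 11710 to 17555 in stromal and 11147 to 14399 in unconditioned medium, and the summed myeloid markers at 590 to 1191 in adipocyte, 4093 to 9602 in stromal and 3809 to 7624 in unconditioned medium. In bulk samples fewer cells of a type and less RNA per cell cannot be told apart, and the part of these shifts in the chaperone values was not tested. Of 6 tested neutrophil markers 5 were lower and 1 higher in adipocyte than in unconditioned medium, of 2 natural killer cell markers 1 was lower and 1 higher, and the 1 tested erythroid marker, Car1, was lower. Of 8 adipocyte markers 1, Lpl, was in the table, at 0 to 12.7 normalized counts in adipocyte, 156 to 193 in stromal and 28.6 to 104.6 in unconditioned medium. None of the 8 stromal markers was in the table.

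The genes whose pattern was most like that of Hspa1a plus Hspa1b were found from the 6 ratios of a conditioned sample over the unconditioned sample of the same mouse. Likeness was the mean absolute difference of these 6 log2 ratios from those of the pair. The 8 nearest named genes were the histone genes H1f1 (0.31), H4c8 (0.36), H4c3 (0.47) and H2bc11 (0.47), the granzyme B gene Gzmb (0.36), the metalloprotease gene Mmp10 (0.43), the transglutaminase gene Tgm2 (0.45) and Adad1 (0.46). Gzmb, for instance, had ratios of 3.70, 3.67 and 4.04 in adipocyte and 0.94, 1.67 and 1.32 in stromal medium. None of the other heat shock protein genes came near the pair, their ratios in adipocyte medium lying between 0.77 and 1.48.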

How the data were processed

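RNA-seq of 9 T cell samples was analysed, 3 per medium. Tools named in the submitters' processing notes are FastQC, Trimmomatic, featureCounts and DESeq2, and builds named there are GRCm39, hg38 and GRCh38, without roles. The aligner and annotation were not given in the sources used here. Values are a signal that the authors made by dividing each sample's read counts by a size factor: scaled back, 100% of them are whole reads within 0.001. The cluster number, a score with no unit, is as deposited. The authors' tables give, per the file headers, log2 fold changes, Wald scores and raw and adjusted p-values. The deposited score matches a test against a 1.5-fold change.

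The limma-trend method (limma 3.58.1, R 4.3.3) was applied to log2(value + 1) in 1 fit over all 9 samples, for the 2868 genes with a mean of at least 1, with two-sided p-values and Benjamini-Hochberg adjustment over all of them (threshold 0.05). No exact permutation test was made, since 0.1 is the smallest p that 3 samples in each group allow. Recovered reads were tested with edgeR 4.0.16, which called 2784 genes for adipocyte and 1685 for stromal medium, each against unconditioned medium, and 2611 between the conditioned media, and with DESeq2 1.42.0. The tests were tried on simulated data. Samples with the same replicate number were read as coming from the same mouse. Their deviations from the group means correlated at -0.12 to 0.26 across genes. The fit without the mouse is the reported one.

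The genes and lists were chosen with earlier results of these data known. Each heat shock protein gene is named; of other lists, up to 4 genes with the smallest adjusted p have values; the 8 nearest genes by likeness leave out unnamed models and pseudogenes. All 10 gene IDs matched GENCODE M21, and 7 genes matched the RefSeq promoter table (GRCm38.p6). Coordinates are those of that table, which may not be the authors' build.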

Additional observations from a re-analysis of the deposited data

How the results depend on the processing

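The counts of heat shock protein genes and of other chaperone pathway genes past the threshold stayed within 1.5 times the reported count under each alternative tried, in all 3 comparisons: pseudocounts of 0.5 and 8, no filter or a mean of at least 50, rescaling, the mouse as a block, only the media compared, edgeR, DESeq2, and leaving out each sample or mouse. With the mouse as a replicate block 10 heat shock protein genes were called for adipocyte and 9 for stromal medium, each against unconditioned medium, and 9 between the conditioned media, the change being Hsph1 in stromal medium; the block changed no other call of these genes. Leaving out samples or mice moved the 3 counts to 10 throughout, 6 to 9 and 8 to 9, and the log2 fold change of Hspa1a plus Hspa1b to 3.41 to 4.03, 0.54 to 0.96 and 2.48 to 3.39. In stromal medium the value of the pair was 0.64 to 0.93 with single samples left out, and 0.90 without mouse 1, where it lost its call. Rescaling by the median of ratios reversed Hspa2 in adipocyte against stromal medium to 0.46 and Hspa4l in stromal against unconditioned medium to 0.26; the shift of all genes by 0.57 and 0.36 makes these. The changes of Hsph1 and of Hspa1a plus Hspa1b in stromal medium were the heat shock protein calls in that comparison that changed when samples were left out; the cause was not tested. Hspa1a and Hspa1b alone lost the call in stromal medium without the stromal or the unconditioned sample of mouse 2, and Hspa1b also without mouse 1. The 10 genes had at least 269 reads in every sample; whether depth limits the calls was not tested.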
